A study of Rattus norvegicus with 12 samples.

Results

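The genes described here encode proteins of the postsynaptic density, the protein-rich layer under the membrane of excitatory synapses, and the adhesion proteins that hold that membrane to the presynaptic terminal. The list names 37 genes and uses no measured value, but it was chosen with earlier results of these data known. Of the 18800 gene symbols in the deposited table, 36 are on it, 1 row each, and all 36 passed the expression filter that left 15487 genes for testing. The remaining listed gene, Lrrtm1, was not on a row of that spelling; a row spelled LRRTM1 was not counted as a member.

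In this layer, MAGUK scaffolds such as PSD-95 bind glutamate receptors and neuroligins through PDZ domains. SAPAP proteins link the MAGUKs to Shank, and Shank binds Homer, which reaches to metabotropic glutamate receptors and to actin. Neuroligins and leucine-rich-repeat proteins cross the cleft to bind presynaptic neurexins and receptor phosphatases, and a further set of proteins couples the layer to spine actin, small GTPases and calcium signalling.

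RNA was from brain tissue of Sprague-Dawley rats, and the study asked about electroacupuncture and synaptic plasticity after cerebral ischaemia. Rats of all 3 groups were restrained. Control rats received no electroacupuncture, and the labels name no operation for them, while the deposited columns taken as theirs are named as sham. Model rats underwent middle cerebral artery occlusion with reperfusion (MCAO/R), and electroacupuncture rats had MCAO/R and electroacupuncture at the Tianfu, Chize, Kongzui and Taiyuan points of the Lung Meridian. The labels give no age, no time after reperfusion, and no brain region or side.

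The labels list 4 samples a group, but the 11 deposited columns held 3 pairs that differed by little more than sampling noise, and each pair was counted as 1 sample. This left 8 samples, lettered within their group: 3 control (A to C), 2 model (A, B) and 3 electroacupuncture (A to C). Their totals ran from 9335913 to 23835724 estimated counts. Levels are given as CPM (counts divided by the scaled library total) and always in the order A, B, C. The common biological coefficient of variation was 36.8%, with 5 residual degrees of freedom. Whether each sample is another animal is not stated in the labels, and the p-values reflect sample-to-sample spread, part of which may be technical.

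Some libraries stood apart in markers of brain regions and cell types. The summed level of 9 hippocampal marker genes was 695 to 871 CPM in the control samples and 640 and 646 CPM in electroacupuncture B and C, but stood at 199 CPM for model A, 184 CPM for model B and 194 CPM for electroacupuncture A. The 10 markers of striatal medium spiny neurons summed to 5613 CPM in electroacupuncture A, with model A at 803 CPM and model B at 424 CPM, against 200 to 395 CPM in the other 5 samples. The 5 glutamatergic neuron markers summed to 39.4 CPM in electroacupuncture A, with model A at 199 CPM and model B at 490 CPM, and to 699 to 1041 CPM elsewhere. This list and the hippocampal one share Neurod6, at 5.29 CPM in electroacupuncture A, 39.1 and 70.3 CPM in the model samples and 239 to 369 CPM elsewhere. The 9 microglial markers summed to 765 CPM in electroacupuncture A, with model A at 609 CPM and model B at 327 CPM, against 199 to 301 CPM elsewhere. The 8 oligodendrocyte markers were lowest in model B, at 24497 CPM against 31818 to 74253 CPM, and the 8 neocortical markers highest there, at 872 CPM against 337 to 628 CPM. Lamp5 (303 CPM) and Cux2 (229 CPM) were the largest parts of that neocortical sum. Not all of the neocortical list was raised in model B: Bcl11b was lowest there, at 37.5 CPM against 96.5 to 202 CPM. The 4 blood markers summed to 108 CPM in electroacupuncture C against 1044 to 5765 CPM. A control sample stood apart too: the 5 choroid plexus markers summed to 1357 CPM in control C, with Ttr at 1344 CPM, against 6.04 to 92.4 CPM. The 6 endothelial markers summed to 310 CPM in electroacupuncture A against 100 to 213 CPM. No marker summed for these lists was at 0 in every sample, although the hippocampal marker Spink8 was at 0 to 0.422 CPM. In bulk tissue, fewer cells of a type and less RNA per cell cannot be told apart, and the part of these differences in the results below was not tested.

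**Figure D1:**
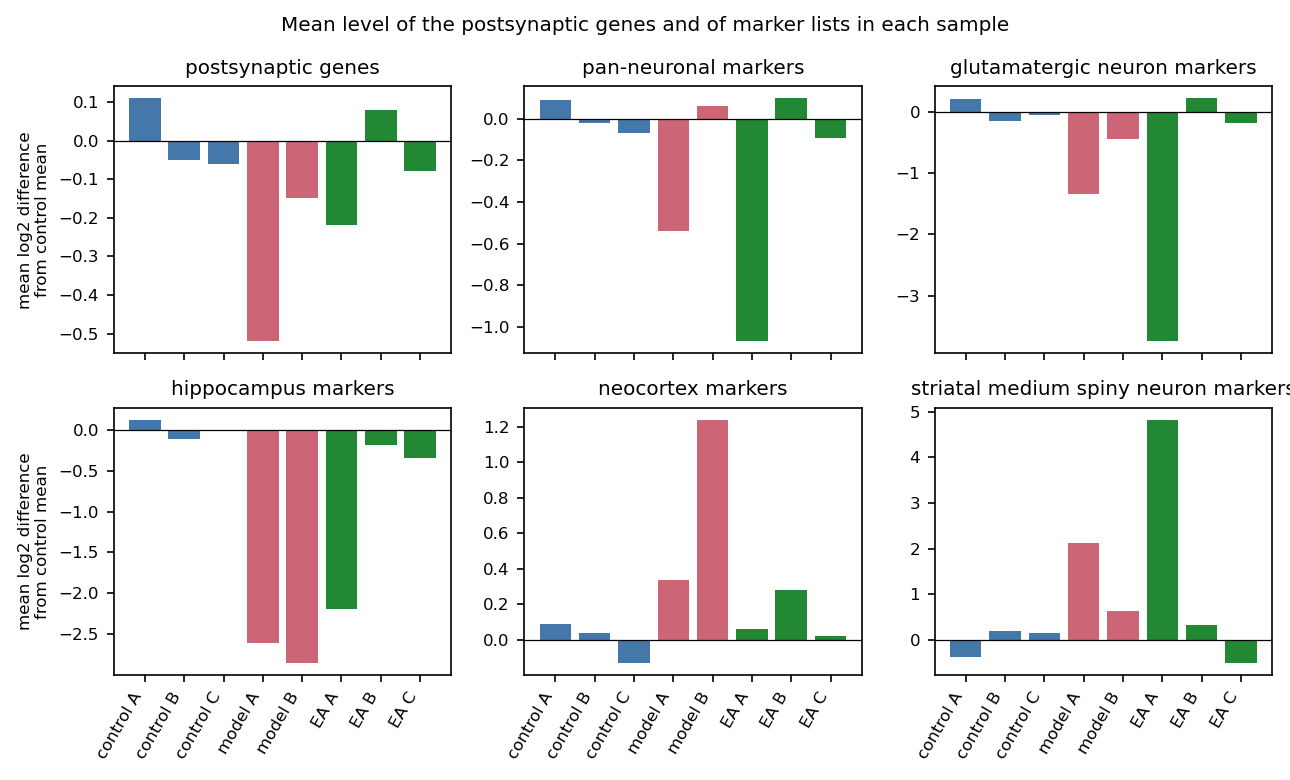
Mean difference from the control mean on the log2(CPM + 0.5) scale in each of the 8 samples (1 bar a sample, EA for electroacupuncture), for the 36 postsynaptic genes and for pan-neuronal, glutamatergic, hippocampal, neocortical and striatal marker lists. The hippocampal list lies between -2.19 and -2.85 in electroacupuncture A and both model samples, and the striatal list reaches 4.82 in electroacupuncture A.

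Across the 36 genes, model A was the sample with low levels. Differences from the control mean, on the log2(CPM + 0.5) scale, had a median of -0.41 in model A, with 31 of 36 genes (86.1%) below the control mean, where 49.5% of all genes tested lay below it. In model B the median was 0.06, with 16 of 36 genes below. The other samples had medians from -0.08 to 0.13, so the 2 model samples did not share 1 level for the group of genes.

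The lowest of the 8 values fell in model A for 17 of the 36 genes, where 15.5% of all genes had theirs, and in electroacupuncture A for 8, where 23.7% of all genes had theirs. The highest value fell in model B for 9 genes and in electroacupuncture A for 9, against 15.9% and 25% of all genes. Electroacupuncture A was at one end or the other for 17 genes (47.2%), a share at the background of 48.7% of all genes. In model B the lowest value fell for 4 genes.

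**Figure D2:**
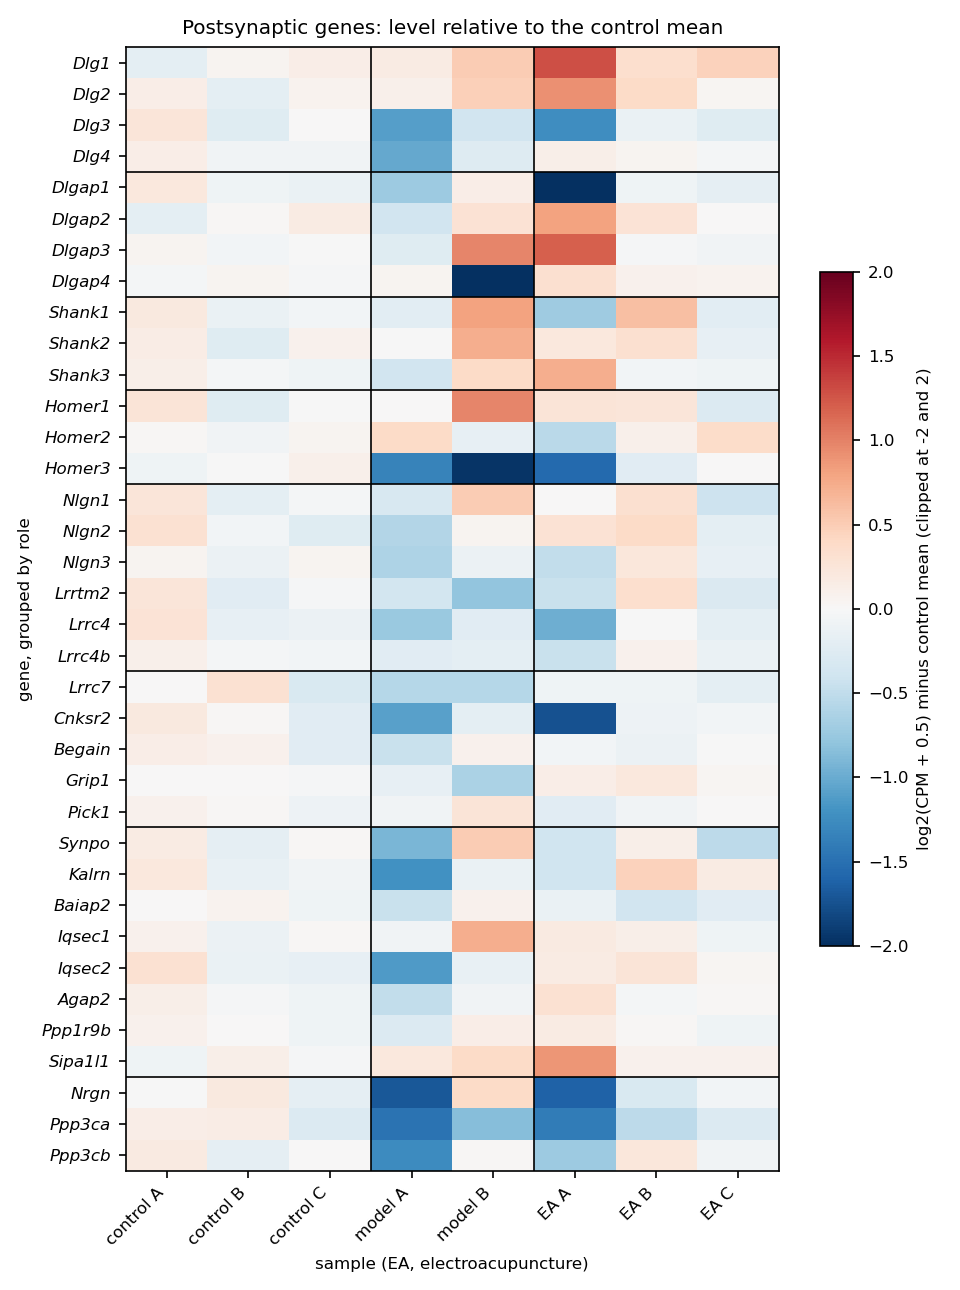
Levels of the 36 genes (rows, grouped by role) in the 8 samples (columns, EA for electroacupuncture), as the difference from the control mean on the log2(CPM + 0.5) scale, with colours clipped at -2 and 2. The column of model A is mostly below the control mean (31 of 36 genes).

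In the model against the control, no gene of the 36 passed an adjusted p of 0.05 in edgeR's quasi-likelihood test, Benjamini-Hochberg adjusted over all genes, where 1 gene of 15487 (0.00646%) did. By estimate 24 of the 36 were lower and 12 higher in the model, with a median log2 fold change of -0.22 against 0.02 over all genes. At an unadjusted p under 0.05, 4 genes were lower (Homer3, Ppp3ca, Lrrc7 and Dlg4; 11.1%, against 6.2% of all genes) and 0 were higher (against 7.61%). Both model samples lay below all 3 control samples for 9 genes (25%, against 19.6% of all genes) and above them for 2 (5.56%, against 18.2%). The share below was near the background, and the share above was under it.

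With model B left out, 31 of the 36 genes were lower and the median was -0.45; with model A left out, 16 were lower and the median was 0.05. The lower median therefore rested on model A. DESeq2, with the same samples, called 763 genes (4.93%), among them Homer3 and Ppp3ca as lower, with adjusted p of 0.00906 and 0.0419.

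Homer3, Ppp3ca, Lrrc7 and Dlg4 had the smallest p-values of the list in this comparison and are shown for that reason by their promoters: the 250 bases before the annotated start, 5′ to 3′ on the gene's strand, from RefSeq (GRCr8), at chr16:19174599-19174848 on the minus strand for Homer3, chr2:227839357-227839606 on the plus strand for Ppp3ca, chr2:250293719-250293968 on the minus strand for Lrrc7 and chr10:55239534-55239783 on the plus strand for Dlg4. Capitals mark a GC box, GGGCGG or its reverse complement CCGCCC.
Homer3: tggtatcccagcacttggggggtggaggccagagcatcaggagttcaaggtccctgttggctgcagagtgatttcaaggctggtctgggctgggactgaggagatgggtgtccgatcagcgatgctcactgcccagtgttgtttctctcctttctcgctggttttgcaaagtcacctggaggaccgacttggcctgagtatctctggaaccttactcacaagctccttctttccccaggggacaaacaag
Ppp3ca: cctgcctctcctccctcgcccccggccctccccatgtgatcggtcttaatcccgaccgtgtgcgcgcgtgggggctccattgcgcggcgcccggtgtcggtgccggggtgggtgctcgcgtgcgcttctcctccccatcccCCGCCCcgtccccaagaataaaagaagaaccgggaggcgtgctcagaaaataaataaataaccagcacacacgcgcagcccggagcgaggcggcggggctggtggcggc
Lrrc7: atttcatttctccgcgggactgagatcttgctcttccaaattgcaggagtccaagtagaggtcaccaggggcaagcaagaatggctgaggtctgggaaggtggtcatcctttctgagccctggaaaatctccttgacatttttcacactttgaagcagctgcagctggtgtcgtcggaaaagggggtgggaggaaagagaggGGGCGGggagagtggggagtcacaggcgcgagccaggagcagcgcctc
Dlg4: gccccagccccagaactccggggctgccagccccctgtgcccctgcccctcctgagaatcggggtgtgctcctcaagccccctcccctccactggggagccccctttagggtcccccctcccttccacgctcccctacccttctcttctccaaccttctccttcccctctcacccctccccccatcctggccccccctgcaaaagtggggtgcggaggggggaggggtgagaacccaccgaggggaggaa
The Ppp3ca and Lrrc7 windows held 1 GC box each and the Homer3 and Dlg4 windows none. GC content was 55.2% for Homer3, 68% for Ppp3ca, 56% for Lrrc7 and 69.2% for Dlg4, against a median of 51.2% over all promoter windows. Of the 30 genes on the list with a promoter entry, 13 (43.3%) held a GC box, as did 33.5% of all 27457 genes with an entry. The cAMP-response half-site TGACG, searched on both strands, was in 3 of the 30 (10%) and in 20% of all genes with an entry. These matches describe letters in a window and say nothing of a factor binding there.

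Among the MAGUK scaffolds, Dlg4 encodes PSD-95, the main scaffold of the mature excitatory synapse. Dlg4 was at 821, 710 and 708 CPM in the control samples, 364 and 623 CPM in the model samples, and 805, 773 and 725 CPM in the electroacupuncture samples. Both model samples lay under the other 6, model A much further than model B. The control mean was 746 ± 65.0 CPM (SD, n = 3), the model mean 494 ± 183 CPM (SD, n = 2) and the electroacupuncture mean 768 ± 39.9 CPM (SD, n = 3). The log2 fold change of Dlg4 in the model against the control was -0.60 (SE 0.25, adjusted p = 0.347, edgeR), and that of electroacupuncture against the model was 0.64 (SE 0.25, adjusted p = 0.327, edgeR). These comparisons share the model samples and neither passed the threshold.

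The other 3 MAGUK genes had other orders of samples. Dlg3, encoding SAP102, which is prominent at young synapses, was at 237, 170 and 203 CPM in the control, 93.8 and 155 CPM in the model and 85.2, 182 and 169 CPM with electroacupuncture. Electroacupuncture A was lower than model A, so the treated samples overlapped the model. Dlg1, encoding SAP97, which takes part in AMPA receptor trafficking, was at 19.4, 23.1 and 24.6 CPM in the control, 25.2 and 31.8 CPM in the model and 55.3, 28.1 and 30.8 CPM with electroacupuncture. All 5 samples with MCAO/R lay above the 3 control samples for Dlg1, narrowly in model A. With columns kept separate, a column of model A was at 24.3 CPM, under control C at 24.6 CPM. Dlg2, encoding PSD-93, was at 102 to 129 CPM in the control, 126 and 162 CPM in the model and 222, 153 and 121 CPM with electroacupuncture, and its groups overlapped. In the model against the control the log2 fold change was -0.71 for Dlg3 (SE 0.37, adjusted p = 0.426, edgeR) and 0.35 for Dlg1 (SE 0.30, adjusted p = 0.63, edgeR).

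**Figure D3:**
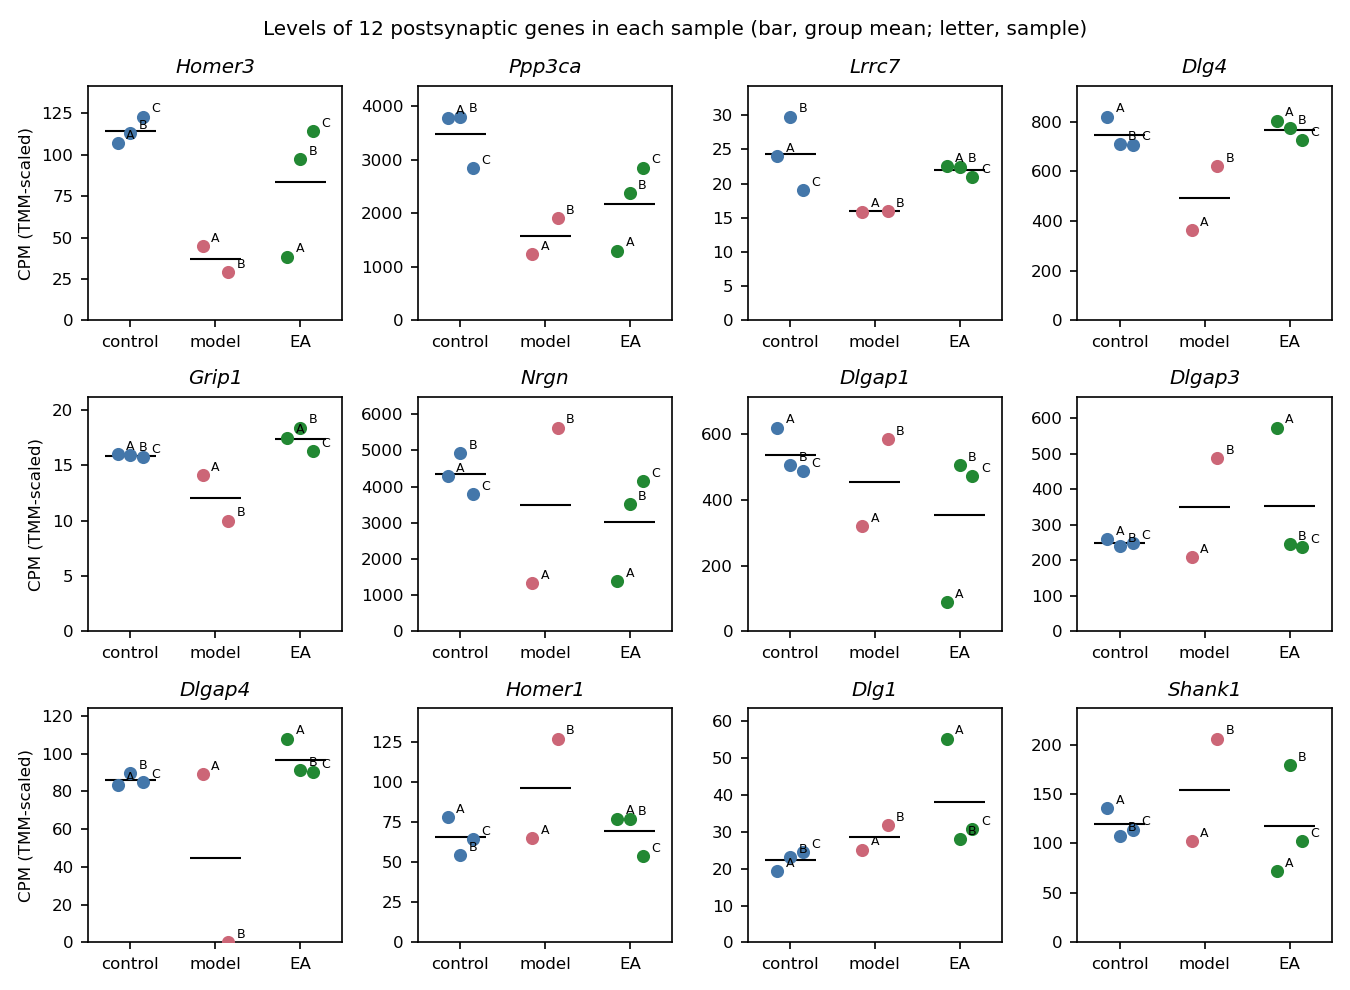
Levels in CPM of 12 genes of the list, 1 point and letter per sample in the control, model and electroacupuncture (EA) groups, with a bar at the group mean and each axis starting at 0. Homer3 shows both model samples and electroacupuncture A under the other 5, and Dlgap4 shows model B alone near 0.

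The SAPAP genes encode the linkers between MAGUKs and Shank, and they held the most uneven values of the list. Dlgap4 was at 83.5, 89.9 and 85.0 CPM in the control, 89.3 and 0.219 CPM in the model and 108, 91.3 and 90.4 CPM with electroacupuncture. Model B alone was near 0, and its 2 combined columns held 1.05 and 3.12 estimated counts where the other columns held 791 to 1242. Model B had 12 genes under 1 CPM that exceeded 50 CPM in all 7 other samples, and every other sample had 0 such genes; what produced this was not tested. Without model A, which leaves model B alone in its group, Dlgap4 was called in the model against the control, with a log2 fold change of -8.56 (adjusted p = 0.00013, edgeR), with the lone sample assumed to vary like the other groups. Without model B it was 0.05 (adjusted p = 0.92, edgeR). In the fit of all 8 samples it was -0.94.

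Dlgap1 was at 621, 507 and 488 CPM in the control, 322 and 587 CPM in the model, and 88.7, 506 and 472 CPM with electroacupuncture. Dlgap3, the linker that is prominent in striatum, was at 261, 240 and 248 CPM in the control, 210 and 489 CPM in the model, and 574, 245 and 238 CPM with electroacupuncture. In electroacupuncture A the lowest Dlgap1 value stood beside the highest Dlgap3 value, while electroacupuncture B and C were close to the control samples for both. The ratio of Dlgap3 to Dlgap1 counts was 0.42, 0.473 and 0.509 in the control, 0.652 and 0.832 in the model, and 6.47, 0.484 and 0.504 with electroacupuncture. Electroacupuncture A is the sample in which striatal markers summed to 5613 CPM and glutamatergic markers to 39.4 CPM, and their part in this ratio was not tested. Dlgap2 was low everywhere, at 2.79 to 6.94 CPM.

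The 3 Shank genes encode the scaffold under the SAPAP layer. All 3 were higher in the model by estimate, with a median log2 fold change of 0.37, yet each had model A under the control mean and model B above it. Shank1 was at 136, 108 and 114 CPM in the control, 102 and 206 CPM in the model and 72.3, 179 and 102 CPM with electroacupuncture. Shank2 was at 66.9, 50.7 and 64.2 CPM, 59.6 and 99.9 CPM, and 69.8, 75.4 and 53.8 CPM in the same groups. Shank3 was at 207, 186 and 181 CPM in the control, 147 and 249 CPM in the model and 317, 184 and 179 CPM with electroacupuncture. The groups overlapped for all 3 Shank genes in every comparison.

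Homer proteins join Shank to group I metabotropic glutamate receptors and to calcium stores. Homer3 was at 107, 113 and 123 CPM in the control, 45.1 and 29.1 CPM in the model, and 38.5, 97.4 and 114 CPM with electroacupuncture. Both model samples lay far below the control samples, electroacupuncture A lay between the 2 model samples, and electroacupuncture B and C were near the control. The control mean was 114 ± 7.74 CPM (SD, n = 3), the model mean 37.1 ± 11.3 CPM (SD, n = 2) and the electroacupuncture mean 83.4 ± 39.7 CPM (SD, n = 3). The log2 fold change of the model against the control was -1.63 (SE 0.44, adjusted p = 0.188, edgeR), the lowest of the 36. That of electroacupuncture against the model was 1.17 (SE 0.43, adjusted p = 0.305, edgeR).

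Homer3 passed the threshold in some other fits. Without electroacupuncture A the adjusted p was 0.0122 in the model against the control and 0.0306 in electroacupuncture against the model (edgeR), with log2 fold changes of -1.63 and 1.52. With the 11 columns as separate libraries it was 0.0159 and 0.027, but that fit counts the near-identical columns of a pair as separate samples. Over 16 alternative fits the adjusted p of the model against the control ranged from 0.00906 to 0.511, and the log2 fold change from -1.98 to -1.35. The 3 samples with low Homer3 are those with low hippocampal markers, whose part was not tested. Homer3 overlaps Ddx49 in the RefSeq annotation, and Ddx49 was at 26.6 to 33.5 CPM in all 8 samples.

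Homer1 ran the other way in the model by estimate, at 78.0, 54.6 and 64.4 CPM in the control, 64.9 and 127 CPM in the model, and 77.2, 76.9 and 53.7 CPM with electroacupuncture, and its groups overlapped. The gene makes a long scaffold form and a short activity-induced form, which gene counts do not separate. The ratio of Homer1 to Homer3 counts was 0.727, 0.482 and 0.525 in the control, 1.44 and 4.38 in the model and 2.0, 0.79 and 0.47 with electroacupuncture. Both model samples and electroacupuncture A exceeded every other sample. Homer2 was at 3.99 to 8.04 CPM over the 8 samples.

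**Figure D4:**
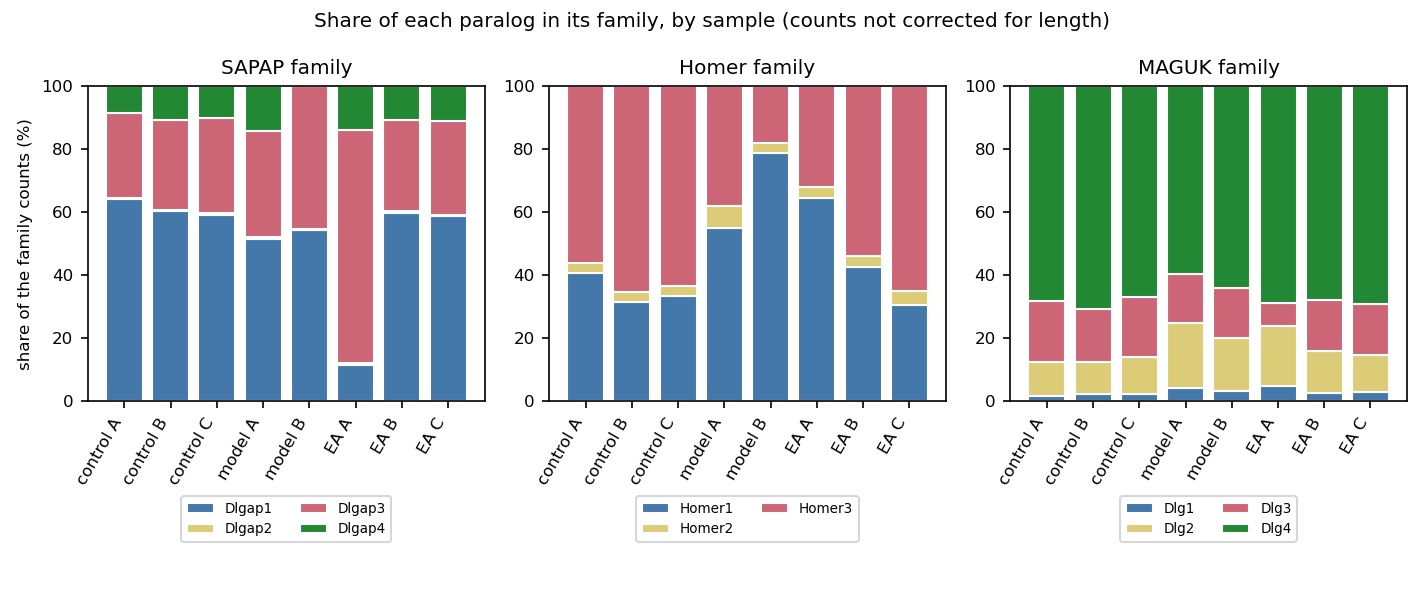
Share of the SAPAP, Homer and MAGUK family counts taken by each paralog in the 8 samples (stacked bars, percent, EA for electroacupuncture), not corrected for gene length. In electroacupuncture A, Dlgap3 takes 73.8% and Dlgap1 11.4% of the SAPAP counts, and in model B Homer3 takes 18.0% of the Homer counts.

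Shares within a family compare 1 gene between samples and are not corrected for length, so they give no order between genes. Homer3 took 56.1% to 65.3% of the Homer counts in the control, 38.2% and 18.0% in the model and 32.2%, 53.9% and 65.0% with electroacupuncture. Iqsec2 took 35.8% to 42.6% of the Iqsec1 and Iqsec2 counts in the control, 23.1% and 25.9% in the model, and 38.6% to 41.3% with electroacupuncture, so all 3 treated samples were within the control range and both model samples were under it. Shank3 took 50.4% to 54.0% of the Shank counts in the control, 47.6% and 44.8% in the model, and 69.1%, 41.9% and 53.5% with electroacupuncture, so electroacupuncture A and B lay on opposite sides of the control range. The widest 95% Wilson interval of any share was ± 2.52 percentage points, which covers counting error only.

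Adhesion proteins of the list span the cleft. By estimate 5 of 6 were lower in the model, with a median log2 fold change of -0.30, and for 3 of them both model samples lay below all control samples. Lrrtm2, a leucine-rich-repeat partner of neurexin, was at 30.5, 22.2 and 25.5 CPM in the control, 19.8 and 14.8 CPM in the model, and 18.9, 32.8 and 21.1 CPM with electroacupuncture. Lrrc4, encoding the netrin-G ligand NGL-2, was at 97.5, 71.5 and 74.6 CPM in the control, 48.0 and 68.9 CPM in the model, and 40.8, 79.6 and 70.0 CPM with electroacupuncture. Lrrc4b, encoding NGL-3, which binds receptor phosphatases, was at 285, 259 and 255 CPM, 229 and 234 CPM, and 195, 284 and 241 CPM in the same groups. For all 3, electroacupuncture A was under the control samples, and electroacupuncture B was higher than both model samples. The log2 fold changes of the model against the control were -0.59 for Lrrtm2 (SE 0.28, adjusted p = 0.407), -0.47 for Lrrc4 (SE 0.31, adjusted p = 0.524) and -0.21 for Lrrc4b (SE 0.19, adjusted p = 0.648), all by edgeR.

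The neuroligins, which bind neurexins and set up the postsynaptic side, overlapped between groups. Nlgn1, the excitatory form, was at 43.2, 31.6 and 35.5 CPM in the control, 29.0 and 51.7 CPM in the model and 36.8, 45.6 and 27.2 CPM with electroacupuncture. Nlgn2, known from inhibitory synapses, ranged from 38.3 to 75.8 CPM, with its lowest value in model A. Nlgn3, found at both kinds of synapse, ranged from 43.8 to 79.1 CPM, also with its lowest value in model A. No neuroligin separated the groups.

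Of the PDZ and densin type adaptors, 4 of 5 were lower in the model by estimate, with a median log2 fold change of -0.39. Lrrc7 encodes densin-180, which binds CaMKII and alpha-actinin, and was at 24.0, 29.8 and 19.1 CPM in the control, 15.9 and 16.0 CPM in the model, and 22.6, 22.5 and 21.0 CPM with electroacupuncture. Both model samples lay under all 6 others and close together. The log2 fold change of Lrrc7 was -0.61 in the model against the control (SE 0.20, adjusted p = 0.259, edgeR) and 0.46 in electroacupuncture against the model (SE 0.20, adjusted p = 0.375, edgeR). With the 11 columns as separate libraries, which counts near-identical columns as separate samples, the adjusted p of the model against the control was 0.048 for Lrrc7.

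Grip1, which binds AMPA receptor subunits, was at 16.0, 15.9 and 15.7 CPM in the control, 14.1 and 10 CPM in the model, and 17.5, 18.4 and 16.3 CPM with electroacupuncture. The 3 groups were ordered without overlap, with the model lowest and electroacupuncture highest. The gap between control and electroacupuncture was narrow: with columns kept separate, control A and electroacupuncture C were both at 16.3 CPM. Its log2 fold change was -0.39 in the model against the control (SE 0.19, adjusted p = 0.411, edgeR), 0.53 in electroacupuncture against the model (SE 0.19, adjusted p = 0.298, edgeR) and 0.14 in electroacupuncture against the control (SE 0.17, adjusted p = 0.861, edgeR). With separate columns, near-identical ones counted as separate samples, the adjusted p of electroacupuncture against the model was 0.0357 for Grip1. Pick1, which binds AMPA receptors during their internalisation, varied little, from 21.8 to 30.7 CPM.

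Model A was under the control range for the 2 other adaptors. Cnksr2, which bridges PSD-95 and Ras signalling, was at 158, 142 and 119 CPM in the control, 65.0 and 121 CPM in the model, and 41.0, 130 and 133 CPM with electroacupuncture, and model B lay inside the control range. Begain, a PSD-95-binding protein, ran from 188 CPM in model A to 281 CPM in control A.

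Of 8 regulators of spine actin and small GTPases, 6 were lower in the model by estimate, with a median log2 fold change of -0.10. Sipa1l1, encoding the Rap GTPase-activating protein SPAR, was at 62.4, 72.8 and 65.3 CPM in the control, 77.2 and 87.6 CPM in the model, and 123, 71.2 and 70.8 CPM with electroacupuncture. With Dlg1 it was 1 of the 2 genes with both model samples above the control (log2 fold change 0.30, SE 0.25, adjusted p = 0.617, edgeR). Iqsec2, an exchange factor for Arf6 linked to PSD-95, was at 103, 76.4 and 75.4 CPM in the control, 37.8 and 75.8 CPM in the model, and 94.0, 100 and 86.7 CPM with electroacupuncture. Model A was the low sample for Iqsec2, and model B was within the control range.

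Kalrn, encoding the Rac exchange factor kalirin, was at 61.2, 47.5 and 50.3 CPM in the control, 22.6 and 47.7 CPM in the model, and 39.8, 72.4 and 58.7 CPM with electroacupuncture. Synpo, encoding the spine apparatus protein synaptopodin, was at 113, 88.3 and 102 CPM, 53.2 and 143 CPM, and 76.1, 108 and 70.1 CPM in the same groups, and its 2 model samples were the lowest and the highest of all 8. Iqsec1, a close relative of Iqsec2, was at 126 and 217 CPM in the model and at 122 to 150 CPM in the other samples. Agap2, an Arf GTPase-activating protein, was at 964, 873 and 831 CPM in the control, 633 and 848 CPM in the model and 1095, 860 and 897 CPM with electroacupuncture. Baiap2, encoding IRSp53, which links Rac to actin, ranged from 414 to 601 CPM, and Ppp1r9b, encoding spinophilin, from 789 to 1064 CPM. Ppp1r9b had the smallest range of the 36 genes, 1.35-fold from its lowest to its highest sample.

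The 3 genes of calcium and calmodulin signalling were all lower in the model by estimate, with a median log2 fold change of -0.48. Ppp3ca, the alpha catalytic subunit of the phosphatase calcineurin, was at 3772, 3805 and 2836 CPM in the control, 1243 and 1905 CPM in the model, and 1303, 2375 and 2854 CPM with electroacupuncture. Both model samples lay below all control samples, and electroacupuncture A was at the level of model A. The means were 3471 ± 550 CPM (SD, n = 3), 1574 ± 468 CPM (SD, n = 2) and 2177 ± 794 CPM (SD, n = 3). The log2 fold change of the model against the control was -1.14 (SE 0.38, adjusted p = 0.258, edgeR), and over 16 alternative fits the adjusted p ranged from 0.0322 to 0.562. The lowest came from the fit of separate columns, where near-identical columns counted as separate samples.

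Nrgn, encoding neurogranin, which holds calmodulin at low calcium, was at 4292, 4939 and 3803 CPM in the control, 1341 and 5633 CPM in the model, and 1401, 3518 and 4147 CPM with electroacupuncture. The 2 model samples were the lowest and the highest of all 8. Ppp3cb, the beta catalytic subunit of calcineurin, was at 250, 194 and 220 CPM in the control, 91.5 and 225 CPM in the model, and 133, 257 and 210 CPM with electroacupuncture, with model A and electroacupuncture A low. For all 3 genes, model A and electroacupuncture A were the lowest samples. Those are also the samples with the lowest pan-neuronal markers, 5876 and 3822 CPM summed against 7292 to 10123 CPM elsewhere, whose part was not tested.

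In electroacupuncture against the model, no gene of the 36 passed an adjusted p of 0.05 (edgeR), nor did any of the 15487 genes tested (0%). By estimate 25 of the 36 were higher and 11 lower, with a median log2 fold change of 0.16 against 0.03 over all genes. All 3 treated samples lay above both model samples for 6 genes (16.7%, against 12.9% of all genes) and below them for 0 (against 11.7%). At an unadjusted p under 0.05, 4 were higher (Homer3, Grip1, Dlg4 and Iqsec2; 11.1%, against 6.3%) and 0 lower (against 7.18%). Without model B the median was 0.44 with 34 genes higher, and without model A it was -0.04 with 17 higher, so this median too rested on model A. DESeq2 called 698 genes (4.51%) and 0 of the 36.

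The 6 genes with no overlap were Grip1, Dlg4, Iqsec2, Lrrc7, Agap2 and Dlgap4. With columns kept separate, Agap2 and Dlgap4 did overlap. For Agap2 a column of model B was at 889 CPM, above those of electroacupuncture B at 851 and 884 CPM. For Dlgap4 a column of model A was at 92.0 CPM, above electroacupuncture C at 90.0 CPM. Iqsec2 had a log2 fold change of 0.72 (SE 0.30, adjusted p = 0.348, edgeR), and Agap2 of 0.36 (SE 0.21, adjusted p = 0.523, edgeR). Dlgap4 was at 1.11 (SE 1.41, adjusted p = 0.803, edgeR), with the near-empty value in model B behind its wide error. Model A and B are 2 samples, so each of these separations rests on the higher of them.

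**Figure D5:**
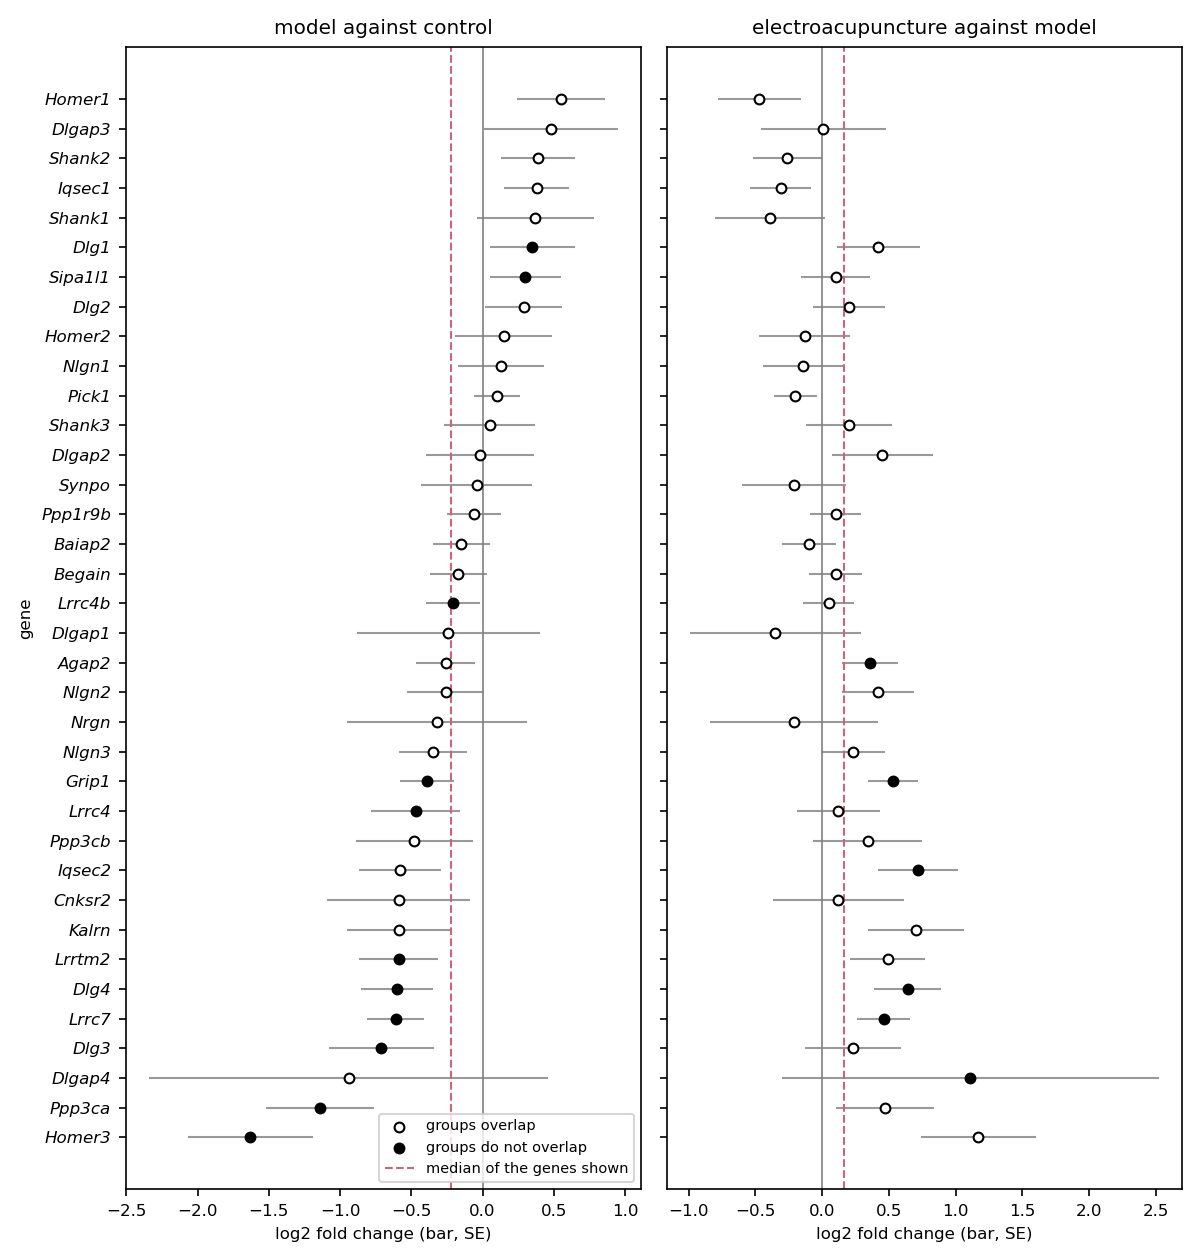
Log2 fold changes (points) with standard errors (bars) of the 36 genes in the model against the control and in electroacupuncture against the model, from edgeR. Filled points mark groups that do not overlap and the dashed line the median of the 36 genes, -0.22 and 0.16; Homer3 (-1.63) and Ppp3ca (-1.14) are the lowest in the model against the control.

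In electroacupuncture against the control, no gene of the 36 and none of the 15487 genes tested (0%) passed an adjusted p of 0.05 (edgeR), and DESeq2 called 1 gene, none of the list. By estimate 18 of the 36 were higher and 18 lower, with a median log2 fold change of 0.01, as over all genes. All treated samples lay above the control for 3 genes, Dlg1, Dlgap4 and Grip1 (8.33%, against 5.98% of all genes), and below it for 1, Baiap2 (2.78%, against 4.88%). At an unadjusted p under 0.05, Dlg1 was higher (2.78% of the list, against 2.71%) and 0 were lower (against 0.956%). Both shares were near their background.

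Dlg1 had a log2 fold change of 0.77 in electroacupuncture against the control (SE 0.27, adjusted p = 0.843, edgeR), with the largest value, 55.3 CPM, in electroacupuncture A. Baiap2 had -0.25 (SE 0.18, adjusted p = 0.843, edgeR) and Dlgap4 0.16 (SE 1.21, adjusted p = 0.979, edgeR). The 3 calcium and calmodulin genes were all lower by estimate, with a median of -0.52. The comparisons against the control and against the model share the electroacupuncture samples, and their values are given side by side only.

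Genes that work with the listed proteins were described from 5 further lists, and 0 genes of any of them passed an adjusted p of 0.05 in any of the 3 comparisons (edgeR). In the model against the control, 19 presynaptic and secreted partners had a median log2 fold change of -0.38, with 7 lower and 4 higher without overlap. The other 37 excitatory postsynaptic genes had -0.08, with 12 lower and 7 higher without overlap, and 29 spine actin and small GTPase genes had -0.22, with 12 lower and 5 higher. Over all genes, 19.6% were lower and 18.2% higher without overlap, as above. The 9 inhibitory postsynaptic genes had -0.14 and the 18 calcineurin and calmodulin partners -0.09. In electroacupuncture against the model the 5 medians were -0.24, -0.03, 0.12, 0.21 and 0.21 in that order, and against the control -0.44, -0.07, 0.04, -0.03 and 0.04.

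Named by the smallest p, C1ql2, a secreted C1q-like protein of mossy fibre synapses, was at 53.3, 32.1 and 57.3 CPM in the control, 0.375 and 0.109 CPM in the model, and 5.81, 55.5 and 32.9 CPM with electroacupuncture (adjusted p = 0.108 in the model against the control, edgeR). C1ql2 is also 1 of the hippocampal markers. Arc, the activity-induced postsynaptic protein, was at 130, 156 and 114 CPM in the control, 48.7 and 52.0 CPM in the model and 54.6, 106 and 75.2 CPM with electroacupuncture (adjusted p = 0.139). Lrrtm3, a relative of Lrrtm2, was at 20.3, 23.9 and 18.1 CPM, 41.5 and 66.4 CPM, and 31.1, 23.0 and 19.5 CPM in the same groups (log2 fold change 1.38, adjusted p = 0.134, edgeR), with the model samples highest.

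Cyfip1, a subunit of the WAVE actin regulatory complex, was at 72.4, 77.6 and 81.6 CPM in the control, 53.6 and 43.6 CPM in the model, and 78.0, 81.7 and 92.2 CPM with electroacupuncture. Its log2 fold change was -0.67 in the model against the control (SE 0.15, adjusted p = 0.169, edgeR) and 0.79 in electroacupuncture against the model (SE 0.15, adjusted p = 0.14, edgeR), and electroacupuncture A was at the level of the other treated samples. Gap43, a calmodulin-binding protein of growing axons, was at 163, 126 and 175 CPM in the control, 397 and 469 CPM in the model, and 209, 228 and 132 CPM with electroacupuncture (adjusted p = 0.115 in the model against the control, edgeR), with both model samples above all others. Of the inhibitory list, Igsf9b, an adhesion protein of inhibitory synapses, had the smallest p. It was at 0.917, 0.682 and 0.733 CPM in the control, 1.98 and 1.48 CPM in the model, and 1.65, 0.893 and 1.05 CPM with electroacupuncture, a log2 fold change of 1.14 in the model against the control (SE 0.45, adjusted p = 0.321, edgeR). Slitrk3, a further adhesion protein there, followed with -0.81 (SE 0.48, adjusted p = 0.485, edgeR). The gephyrin gene Gphn, the scaffold of inhibitory synapses, was at 84.8, 76.7 and 74.1 CPM, 58.0 and 73.2 CPM, and 69.9, 72.7 and 85.6 CPM in the same groups, a log2 fold change of -0.26 in the model against the control (SE 0.16, adjusted p = 0.503, edgeR).

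Of the 36 genes, 7 overlap a coding gene of the table in the RefSeq annotation, and the sources used here do not say whether the counting used the strand, so their counts may hold reads of the neighbour. These are Homer3 with Ddx49, Shank3 with Acr, Lrrtm2 with Ctnna1, Lrrc4 with Snd1, Cnksr2 with Klhl34, Agap2 with Tspan31 and Grip1 with Helb. Helb was at 8.07 to 14.5 CPM and Ctnna1 at 67.9 to 128 CPM, levels that are not small beside those of Grip1 and Lrrtm2. The same holds for Snd1, at 66.0 to 78.5 CPM, beside Lrrc4. In model B, Ddx49 was at 31.8 CPM and Homer3 at 29.1 CPM. Acr, Klhl34 and Tspan31 were below their partners in every sample.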

How the data were processed

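Poly(A) RNA was sequenced as paired-end, strand-marked libraries with unique molecular identifiers in the adapters, per the labels' protocols; their use in counting is not given. The deposited table has estimated counts per gene, not normalized, with 70.5% to 72.1% whole values a column. The submitters' processing notes name featureCounts 1.5.0-p3, DESeq2 1.16.1, StringTie 1.3.3b and HISAT2 2.0.5 without their roles. The sources used here do not give the genome build. How reads shared by near-identical genes were counted is likewise not given.

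The table has 18804 rows, and 4 symbols on 2 rows each were summed. Of its 11 columns, 4 are named for the model, 4 for electroacupuncture and 3 as sham, the last taken as the control group for want of another; 0 columns were left unused. Columns were compared gene by gene where their summed count reached 20. For 3 pairs within a group the squared difference had a median of 1.34 to 1.4 sampling variances, against 4.75 to 26.5 in the other 12 such pairs, so pairs under 2 were summed to 1 sample (model A, model B and electroacupuncture B). The planned fit with each column as a library is an alternative.

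Counts were rounded and tested with edgeR 4.0.16 in R 4.3.3 (TMM, filterByExpr, robust quasi-likelihood, 1 fit over the 3 groups), with p-values adjusted by Benjamini-Hochberg over all 15487 genes and a threshold of 0.05. The procedure was tested on simulated data with less spread between samples than the 36.8% found here. That test therefore does not show how the procedure performs on these data. Levels are TMM-scaled CPM, and differences from the control mean use log2(CPM + 0.5). Alternatives were DESeq2 1.42.0, other scalings and filters, the compared groups alone, a block by column number, and leaving out each sample. Full statistics are given for up to 12 genes a comparison whose groups do not overlap, and up to 3 genes with the smallest p are named from each further list. The 37 genes, the further lists and the markers were chosen with earlier results of these data known. Promoters are those of RefSeq for GRCr8, searched in the 250 bases before the start.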

Additional observations from a re-analysis of the deposited data

How the results depend on the processing

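The 21 single-gene values (a gene in a comparison) were those whose groups did not overlap. Leaving out a sample could therefore hardly turn their direction. Of 336 values under the alternatives run, 326 kept their side of the threshold, 10 gained a call and 0 reversed. Within that set, the log2 fold change of Dlgap4 in electroacupuncture against the model ran from 0.11 to 8.72. The 8.72 came without model A, which leaves the near-empty value of model B alone in its group. Outside that set, the log2 fold change of Dlgap4 in the model against the control ran from -8.56 to 0.05. Called genes in the model against the control numbered 1, and 763 with DESeq2, 1129 with the 11 columns separate, 294 with only those groups fitted, 471 with separate columns and a replicate block together, 0 with total counts and 0 to 565 with a sample left out (565 without electroacupuncture A). Called genes of the list there numbered 0, and 2 with DESeq2, where 4.93% of all genes were called. They numbered 3 with separate columns (7.37% of all genes) and 1 with only those groups (1.95% of all genes). Separate columns and the replicate block gave 1 (3.08% of all genes). With a control or electroacupuncture sample left out there were 0 to 1 (0% to 3.7% of all genes). In electroacupuncture against the model, 0 genes were called, and 698 with DESeq2, 1666 with separate columns, 876 with separate columns and the replicate block and 0 to 308 with a sample left out (308 without model A); of the list 0, 2 with separate columns and 0 to 1 with a sample left out. In electroacupuncture against the control DESeq2 called 1 gene. Leaving out a sample moved the median log2 fold change of the list from -0.45 to 0.05 in the model against the control and from -0.04 to 0.44 in electroacupuncture against the model. The genes of the list without overlap then numbered 13 to 30 (36.1% to 83.3%, against 45.8% to 71.9% of all genes), 7 to 21 (19.4% to 58.3%, against 32.1% to 52.9%) and 5 to 12 (13.9% to 33.3%, against 16.6% to 31.3%) in the 3 comparisons. The cause of the other differences was not tested.

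Total counts moved the all-gene median of the model against the control from 0.02 to 0.13 and that of the list from -0.22 to -0.12, with 21 of 36 genes lower. Same-numbered columns of different groups had deviations that correlated from -0.161 to 0.19 over 10 pairs, 7 of them over 0.1, and 2 of 11 columns correlated best with their own number; since not every pair was over 0.1, the numbers were not taken to pair the samples. The replicate block was fitted with all 11 columns separate, so its match is the fit of separate columns: there it lowered the called genes from 1129 to 471 and from 1666 to 876. Ppp3ca was called in the model against the control in both, with an adjusted p of 0.0322 without the block and 0.0485 with it (edgeR). Both fits counted the near-identical columns of a pair as separate samples, and the block put them in different blocks, so these p-values overstate the replication. With the block no gene of the list was called in the other comparisons. With 2 model samples and a common coefficient of variation of 36.8%, small differences were not detectable, and some large estimates missed the threshold too. In the model against the control these included C1ql2 (log2 fold change -7.56, adjusted p = 0.108, edgeR) and Homer3 (-1.63, adjusted p = 0.188, edgeR). The lack of calls therefore does not exclude large differences.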

Other observations

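The row spelled LRRTM1, outside the list by spelling, was at 86.4, 76.7 and 87.6 CPM in the control, 36.5 and 43.1 CPM in the model, and 50.2, 79.3 and 80.5 CPM with electroacupuncture. Both model samples lay below the other 6, with a log2 fold change of -1.07 in the model against the control (SE 0.23, adjusted p = 0.147, edgeR) and 0.81 in electroacupuncture against the model (SE 0.23, adjusted p = 0.203, edgeR). In the same direction by estimate as Lrrtm2, it was opposite to Lrrtm3.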
